A study of Mus musculus with 12 samples.

Results

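Tumors that carried p53ERTAM were compared with tumors that carried an empty vector (EV), all of them treated with the same drug combination, called combo in the study. The samples were taken by their titles: 3 p53ERTAM tumors and 3 EV tumors under combo, 6 of the 12 RNA-seq samples of the series. Both groups were grown from the transplantable mammary tumor 2153L, derived from a genetically engineered mouse and labelled triple-negative breast cancer. The hosts were female Balb/c mice, and the site was the mammary fat pad. Both received ORIN1001 at 150 mg/kg and docetaxel at 20 mg/kg over 8 days, and the groups differ by label only in the vector. The other 6 samples, 3 p53ERTAM and 3 EV tumors given vehicle, are used where the same vector comparison is set beside the one under combo. The question was which protein-coding genes differ with the vector when the drugs are present. All RNA came from bulk tumors, so host stroma and immune cells are included, and the tumor itself is 1 transplanted line. The labels give neither the Trp53 genotype of the tumor line nor which mice received tamoxifen. They also do not say that replicates came from separate animals, so the p-values measure only the spread between these samples.

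The tumor suppressor p53 is a transcription factor that is stabilised by DNA damage and other stresses and induces genes of cell-cycle arrest, apoptosis and its own degradation. In p53ERTAM it is fused to a modified hormone-binding domain of the estrogen receptor, which holds the fusion inactive until tamoxifen binds. ORIN1001 inhibits the RNase of IRE1α, the endoplasmic reticulum stress sensor that splices Xbp1 mRNA and cleaves other mRNAs at the reticulum. Docetaxel stabilises microtubules and blocks the completion of mitosis.

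Total counts were 14433361 to 17601245 in the EV combo libraries and 21914913 to 24424964 in the p53ERTAM combo libraries. The kinds of RNA counted differed between the groups. Protein-coding genes held 80.9 to 81.7% of counts in EV combo and 94.5 to 95.3% in p53ERTAM combo, and Gm26917, annotated as a long noncoding RNA, held 10.7 to 11.1% and 0.188 to 0.398%. Mitochondrial transcripts held 0.703 to 0.957% and 1.73 to 1.80%. This difference in make-up follows the groups exactly, and its part in the results was not tested. Of 14 luminal epithelial markers, all had counts in every group, and their summed level was 2977 to 3675 CPM (counts per 1000000, scaled by library size and the TMM factor) in EV combo and 2724 to 3384 CPM in p53ERTAM combo, so the labelled mammary epithelial origin had its markers present.

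**Figure D1:**
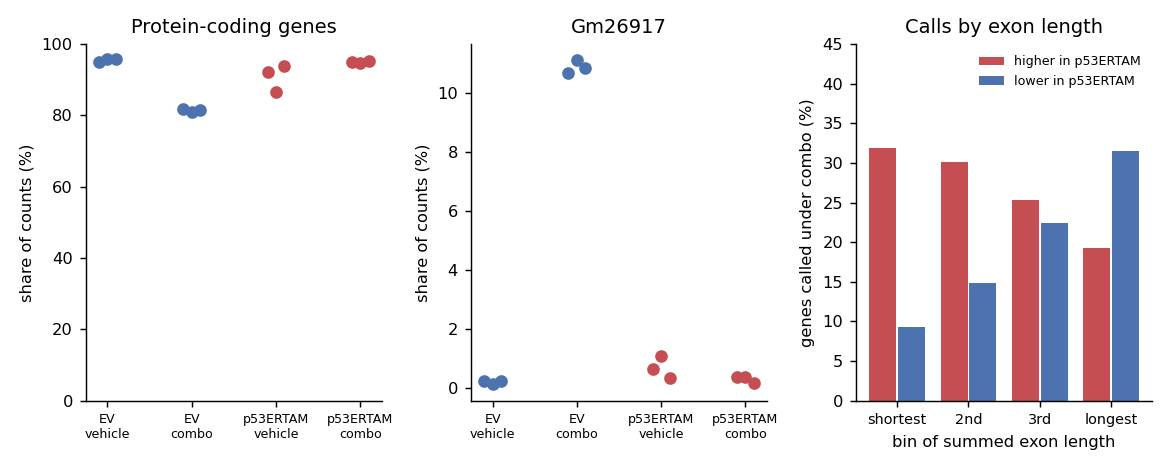
Left and middle, share of all counts (%) held by protein-coding genes and by Gm26917, with 1 point per library in each of the 4 groups. Right, share (%) of protein-coding genes called higher or lower in p53ERTAM than in EV tumors under combo, in 4 bins of summed exon length with near-equal numbers of genes; lower calls go from 9.34% in the shortest bin to 31.5% in the longest.

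A large share of protein-coding genes differed between the vectors under combo. Of 13911 tested, 6419 (46.1%) had an adjusted p below 0.05 by edgeR's quasi-likelihood test with Benjamini-Hochberg adjustment, 3705 (26.6%) higher and 2714 (19.5%) lower in p53ERTAM tumors. In 6329 of the 6419 the 3 and 3 libraries did not overlap, which was also so of 37.7% of all genes in the higher and 25.9% in the lower direction. Against a fold of 1.5 the counts were 1221 higher (8.78%) and 894 lower (6.43%). The median log2 fold change over all protein-coding genes was 0.13. When the libraries were scaled over protein-coding genes alone it was 0.020, a shift of 0.11, and 3044 genes were higher and 3373 lower. The higher share of calls was then 47.4% in place of 57.7%. All 3044 and all 2714 were calls under both scalings, and no gene was called in opposite directions. The list medians below are to be read beside the all-gene median of 0.13, and in a bulk tumor fewer cells of a type and less RNA per cell cannot be told apart.

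p53 target genes stood higher in the p53ERTAM tumors. Trp53 itself (GRCm38 chr11:69580359-69591873) had 48.1, 51.4 and 39.8 CPM in EV combo and 57.6, 60.6 and 65.0 CPM in p53ERTAM combo. The groups did not overlap, and the log2 fold change was 0.40 (SE 0.139, edgeR adjusted p = 0.0338). Trp53 was no longer called with protein-coding scaling (adjusted p = 0.101), with GC and exon length offsets (0.172), by DESeq2 (0.0510) and without any 1 of the combo libraries other than EV replicate 2 (0.0554 to 0.136). Esr1, the estrogen receptor gene whose hormone-binding domain is in the fusion, had 8.43, 12.1 and 10.5 CPM against 37.0, 38.9 and 36.6 CPM (log2 fold change 1.86, SE 0.237, edgeR adjusted p = 6.38e-05). Gene counts do not separate the endogenous genes from the transgene, and reads of the fusion in Trp53 and Esr1 were not tested.

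Of 35 p53 targets, 25 were higher and 4 lower, with a median log2 fold change of 0.80, and the counts were the same with protein-coding scaling. Cdkn1a, which encodes the cyclin-dependent kinase inhibitor p21 (chr17:29090979-29100722), had 53.8, 22.2 and 25.2 CPM in EV combo. In p53ERTAM combo it had 175, 199 and 167 CPM, and every one of these lay above the highest EV library (log2 fold change 2.42, SE 0.333, edgeR adjusted p = 0.00017). Ccng1, the p53-induced cyclin G1 gene (chr11:40748552-40755311), had 26.8, 32.0 and 34.0 CPM against 122, 132 and 128 CPM (2.04, SE 0.122, edgeR adjusted p = 7.64e-07). Ephx1, an epoxide hydrolase, had 15.8, 15.7 and 15.9 CPM against 53.5, 52.8 and 60.2 CPM (1.81, SE 0.189, edgeR adjusted p = 1.56e-05). These levels hardly varied within a group. Mdm2, the ubiquitin ligase that degrades p53, differed less: 82.5, 62.7 and 64.9 CPM against 97.3, 97.8 and 98.7 CPM (0.48, SE 0.132, edgeR adjusted p = 0.00987). The 4 lower members were Pidd1 (-1.71), a death-domain adaptor, Psrc1 (-1.37), a spindle-associated protein, Ddb2 (-1.37), which recognises ultraviolet DNA damage, and Rb1cc1 (-0.37), an autophagy initiator. With GC and exon length offsets the fitted log2 difference of Rb1cc1 was instead 0.14 (edgeR adjusted p = 0.356).

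**Figure D2:**
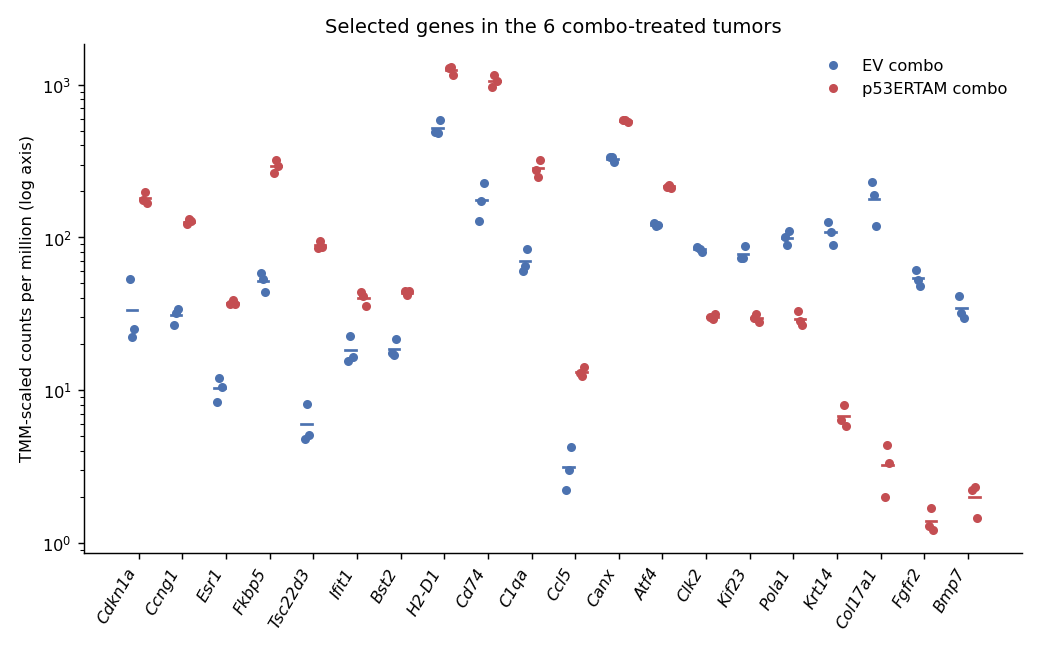
TMM-scaled CPM (log axis) of 20 genes in the 3 EV and 3 p53ERTAM tumors under combo; each point is 1 library and each bar the group mean. No gene shown has overlapping groups; Cdkn1a goes from 22.2 to 53.8 CPM up to 167 to 199 CPM, and Fgfr2 from 48.1 to 61.4 CPM down to 1.21 to 1.69 CPM.

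Apoptosis regulators of both signs were higher. Of 18 measured, 10 were higher (55.6% called, beside 46.1% of all protein-coding genes) and the median was 0.61. Bcl2l1, which encodes the survival protein BCL-XL, had 78.3, 80.5 and 74.8 CPM against 187, 216 and 203 CPM (1.37, SE 0.112, edgeR adjusted p = 2.97e-06). The survival gene Mcl1 was higher by 0.92, and so were Bid (0.94), which links death receptors to mitochondria, and Casp9 (0.93), the initiator caspase of the mitochondrial route. Of 16 pyroptosis and necroptosis genes 6 were higher (median 0.96). This was 37.5% called, beside 46.1% of all protein-coding genes called and 26.6% higher. By voom with quality weights 12 were higher, where voom called 4772 protein-coding genes higher in place of 3705. Gsdmd, the pore-forming gasdermin, had 11.2, 8.73 and 9.45 CPM against 19.8, 22.1 and 18.9 CPM (1.05, SE 0.180, edgeR adjusted p = 0.00052). Ninj1 (1.15), whose protein ruptures the membrane of dying cells, Casp4 (1.25) and the inflammasome sensor Nlrp3 (1.24) were higher too. Zbp1, which senses nucleic acids in the Z conformation and can trigger necroptosis, had 15.2, 13.4 and 16.6 CPM against 23.8, 25.7 and 28.4 CPM. Its groups did not overlap but it was not called (0.78, SE 0.360, edgeR adjusted p = 0.0937); it was called when only the 6 combo samples were fitted (0.00135), by voom (0.0110) and without EV vehicle replicate 3 (0.00300).

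Genes of cell division were lower. Of 26 mitosis genes 24 were lower (median -0.88), and of 30 DNA replication genes 21 (median -0.65; 25 with protein-coding scaling), against 19.5% of all genes. Pola1, the catalytic subunit of the polymerase that primes replication, had 100, 89.6 and 110 CPM in EV combo and 33.0, 28.2 and 26.8 CPM in p53ERTAM combo (-1.77, SE 0.140, edgeR adjusted p = 2.57e-06). Tk1, thymidine kinase, had 115, 131 and 131 CPM against 48.9, 44.5 and 53.2 CPM (-1.36, SE 0.111, edgeR adjusted p = 2.97e-06). Each EV library was above each p53ERTAM library in both genes. Kif23, a kinesin of cytokinesis, had 73.4, 73.7 and 88.6 CPM against 29.5, 31.7 and 28.0 CPM (-1.40, SE 0.136, edgeR adjusted p = 9.37e-06). Ttk (-1.36), Cenpf (-1.03) and Bub1b (-0.91), which act at kinetochores, were lower as well. Among the inhibitors of cyclin-dependent kinases, Cdkn2b (1.32) and Cdkn2a (1.26) were higher beside Cdkn1a, while Cdkn2c (-0.84) was lower. Of 10 tubulin genes, the subunits that docetaxel acts on, 3 were lower (median -0.39). This was 30% called, beside 46.1% of all protein-coding genes called and 19.5% lower. With protein-coding scaling, with exon length offsets or by DESeq2 6 were lower. Tubb6 (-0.85) and Tubb4b (-0.65) were among the 3. Refits without 1 library called 2 to 5 tubulins, the 5 without EV combo replicate 2.

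A group of steroid-responsive genes was among the clearest differences. Of 12 steroid receptors and responders 9 were higher (median 1.83). Fkbp5, a co-chaperone of steroid receptors induced by glucocorticoid (chr17:28399095-28517524), had 59.0, 53.2 and 43.8 CPM in EV combo and 265, 321 and 292 CPM in p53ERTAM combo (2.49, SE 0.141, edgeR adjusted p = 5.96e-07). No gene called higher had a smaller p. Tsc22d3, the glucocorticoid-induced leucine zipper (chrX:140539528-140600659), had 4.82, 8.16 and 5.07 CPM against 85.5, 95.3 and 86.9 CPM (3.90, SE 0.448, edgeR adjusted p = 5.38e-05). Sgk1 (1.83), a kinase induced by glucocorticoid, and the clock gene Per1 (1.30) were higher too. Fkbp5 was also higher under vehicle (1.60, edgeR adjusted p = 1.21e-05), whereas Tsc22d3 had 0.67 there (edgeR adjusted p = 0.198), and the 2 vector differences of Tsc22d3 differed (interaction 3.23, edgeR adjusted p = 0.00182).

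Interferon-stimulated genes are induced when interferon receptors activate a transcription factor complex that binds the interferon-stimulated response element (ISRE). Of the 35 measured, 24 were higher (22 with protein-coding scaling, 17 to 28 without 1 library), with log2 fold changes of 0.04 to 2.80 and a median of 0.95. RefSeq promoter windows of GRCm38.p6, 250 bases before to 50 after the start, were matched for 27 of the 35. The core letters GAAANNGAAA, searched on both strands in the upstream bases, were present in 12 of these 27 (44.4%), 10 of them called, and in 357 of 10822 tested genes with a window (3.30%). Matches can overlap in a run of repeats, and a match is a description of the letters only. The windows below are of 4 members with the core, shown because the list can be seen in them; capitals mark 1 match each. They lie at chr19:34640774-34640863 (plus strand) for Ifit1, chr8:71537537-71537626 (minus) for Bst2, chr4:156200825-156200914 (minus) for Isg15 and chr3:142620574-142620662 (plus) for Gbp2. Isg15 and Gbp2 were chosen for the match, outside the rule for named genes.
Ifit1: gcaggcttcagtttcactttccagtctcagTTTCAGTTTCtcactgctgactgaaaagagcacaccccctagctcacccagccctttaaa
Bst2: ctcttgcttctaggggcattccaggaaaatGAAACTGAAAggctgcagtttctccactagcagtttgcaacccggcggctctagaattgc
Isg15: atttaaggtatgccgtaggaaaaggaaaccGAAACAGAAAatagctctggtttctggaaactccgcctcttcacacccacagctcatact
Gbp2: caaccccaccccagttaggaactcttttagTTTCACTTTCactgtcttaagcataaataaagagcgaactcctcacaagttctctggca

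All 4 genes were higher in p53ERTAM tumors. Ifit1, an antiviral RNA-binding protein, had 15.6, 22.6 and 16.6 CPM in EV combo and 44.0, 41.5 and 35.6 CPM in p53ERTAM combo (1.15, SE 0.234, edgeR adjusted p = 0.0017). Bst2, tetherin, had 17.6, 17 and 21.6 CPM against 44.4, 41.9 and 44.6 CPM (1.22, SE 0.198, edgeR adjusted p = 0.000355). The ubiquitin-like Isg15 was higher by 1.35 and the guanylate-binding protein Gbp2 by 1.89. Gbp2 lost its call without the filter on low counts (edgeR adjusted p = 0.065). In none of these genes did the groups overlap. Of 17 dsRNA-sensing genes 7 were higher and 2 lower (median 0.43; 5 and 2 with protein-coding scaling). This was 52.9% called, near the 46.1% of all protein-coding genes. Ticam1, the adaptor of TLR3, was higher by 0.81, while the kinase Tbk1 (-0.44) and the transcription factor Irf3 (-0.68) were lower. The 7 became 4 without EV combo replicate 1 or p53ERTAM combo replicate 1 or 2, and 11 without EV vehicle replicate 3. In the list of interferon ligands, receptors and their signalling genes 10 were measured, and the ligands Ifnb1 and Ifng were not among them. Of the 10, 6 were higher, among them the receptor subunit Ifngr2 (1.09), the feedback inhibitor Socs1 (2.16) and Irf1 (0.59). The kinase Tyk2 (-0.47) was lower. Irf1 lost its call without EV combo replicate 1 (adjusted p = 0.0744) or p53ERTAM combo replicate 3 (0.0575) in edgeR refits. Only 3 of the 6 were called with protein-coding scaling, and 2 to 3 without EV combo replicate 1, 2 or 3 or p53ERTAM combo replicate 1 or 3.

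Both routes of antigen presentation stood higher. Of 16 MHC class I genes, which load peptides of the cell's own proteins, 14 were higher (median 0.83). H2-D1, a class I heavy chain, had 488, 486 and 586 CPM against 1293, 1302 and 1154 CPM (1.26, SE 0.220, edgeR adjusted p = 0.000619). The immunoproteasome subunit Psmb10 (1.29), the peptide-loading factor Tapbp (1.29) and the transporter Tap2 (0.88) were higher. All 7 MHC class II genes, which present engulfed proteins, were higher, with log2 fold changes of 2.21 to 2.92. Cd74, the invariant chain, had 127, 173 and 229 CPM against 961, 1156 and 1061 CPM (2.58, SE 0.536, edgeR adjusted p = 0.00256). The lowest p53ERTAM library was above the highest EV library by more than the spread within either group. H2-DMb1, a peptide exchanger, was higher by 2.92 and H2-Eb1 by 2.68. The Y box letters CTGATTGG stood in the upstream bases of 2 of 4 class II genes with a RefSeq window, H2-Eb1 (chr17:34305775-34305862, plus) and H2-Aa (chr17:34287824-34287904, minus), and of 6.14% of all genes with one. They are shown with the box in capitals, H2-Aa (log2 fold change 2.21) for its match.
H2-Eb1: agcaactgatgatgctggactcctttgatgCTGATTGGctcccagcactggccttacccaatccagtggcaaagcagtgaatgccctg
H2-Aa: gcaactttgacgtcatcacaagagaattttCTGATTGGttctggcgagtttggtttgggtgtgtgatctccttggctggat

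Macrophage markers and part of the T cell markers were higher in the same tumors. The other immune cell lists had few calls, and 26.6% of all protein-coding genes were called higher. Of 18 macrophage markers 15 were higher (median 1.75), and their summed level was 786 to 1091 CPM in EV combo and 2551 to 3550 CPM in p53ERTAM combo, with no marker at 0. C1qa, a complement subunit made by macrophages, had 60.4, 65.3 and 83.7 CPM against 278, 249 and 321 CPM (2.02, SE 0.244, edgeR adjusted p = 5.9e-05). Apoe (1.98), a lipid carrier, and the complement genes C1qb (1.93) and C1qc (1.88) were higher by similar amounts. Of 8 dendritic cell markers 2 were higher (25%), the integrin Itgax (1.5) and the chemokine receptor Xcr1 (3.19), with sums of 37.2 to 54.8 and 104 to 110 CPM. Of 7 neutrophil markers 2 were higher (28.6%, median 0.38), the receptors Csf3r (0.76) and Cxcr2 (0.95), and the log2 fold changes ran from -0.60 to 0.95. Both calls were lost without EV combo replicate 1 or 3 or p53ERTAM combo replicate 2 (adjusted p 0.0626 to 0.142). Cxcr2 was also no longer called with protein-coding scaling (0.0728) or without p53ERTAM combo replicate 1 (0.127) or 3 (0.109) or any 1 vehicle library other than EV replicate 3 (0.0514 to 0.0643). The 9 listed neutrophil markers summed to 31.6 to 60.2 CPM and 59.8 to 63.3 CPM, with Ly6g and Elane at 0 in EV combo. Of 6 NK and cytotoxic cell markers 2 were higher (33.3%, median 1.80), Klrk1 (1.54) and Nkg7 (2.54), a receptor and a granule protein. Without EV vehicle replicate 2 or 3 they were 4, without EV combo replicate 1 or p53ERTAM combo replicate 3 only 1, and both calls were lost without p53ERTAM combo replicate 1. Klrk1 lost its call without EV combo replicate 1 or 2 or p53ERTAM combo replicate 1 (adjusted p 0.0657 to 0.0812), and Nkg7 without the low-count filter (0.0883), EV combo replicate 3 or p53ERTAM combo replicate 1, 2 or 3 (0.0506 to 0.0629). The 8 listed summed to 2.22 to 7.80 CPM and 13.2 to 20.6 CPM. The 11 T cell markers summed to 6.85 to 15.6 CPM in EV combo and 37.5 to 43.9 CPM in p53ERTAM combo. Among them 5 were higher (median 1.93), including the receptor chain Cd3e (0.634, 1.44 and 1.59 CPM against 6.64, 6.70 and 9.13 CPM; 2.61, SE 0.651, edgeR adjusted p = 0.0065). Between 2 and 8 T cell markers were called without 1 library: 2 without EV combo replicate 1 or p53ERTAM combo replicate 1 or 3, 3 without EV combo replicate 3 or p53ERTAM combo replicate 2, and 8 without EV vehicle replicate 2. The part of these markers in the interferon, MHC and chemokine differences was not tested.

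Chemokines, lysosomal genes and checkpoint ligands were higher beside the macrophage markers. Of 21 chemokines 14 were higher (median 1.53), and 9 without p53ERTAM combo replicate 3. Cxcl16, a scavenger-receptor chemokine, had 35.2, 39.6 and 53.7 CPM against 128, 138 and 122 CPM (1.60, SE 0.137, edgeR adjusted p = 4.44e-06). The T cell attractant Ccl5 (2.05) and the myeloid chemokine Ccl9 (1.58) were higher as well. Of 25 lysosomal genes 22 were higher and 2 lower (median 1.03; 20 and 2 with protein-coding scaling). Psap, the precursor of the saposins that aid lipid breakdown, had 658, 625 and 697 CPM against 1763, 1792 and 1793 CPM (1.43, SE 0.0956, edgeR adjusted p = 9.75e-07). Npc2 (1.40) and Hexa (1.48), which export or degrade lysosomal cargo, were higher, and the channel Mcoln1 (-0.60) and the proton pump subunit Atp6v1h (-0.36) were lower. Atp6v1h lost its call without EV combo replicate 1 or 3 or p53ERTAM combo replicate 2 or 3 (adjusted p 0.0734 to 0.0938), and with GC and exon length offsets its log2 fold change was 0.20. Of 10 checkpoint ligands 8 were higher, among them Cd47 (1.22), the signal against phagocytosis, the costimulator Cd86 (1.77), Vsir (1.29) and Cd276 (0.64). Vtcn1, the ligand B7-H4, was the 1 lower member: 7.23, 5.63 and 11.8 CPM against 2.86, 1.64 and 1.37 CPM (-2.07, SE 0.471, edgeR adjusted p = 0.00354).

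**Figure D3:**
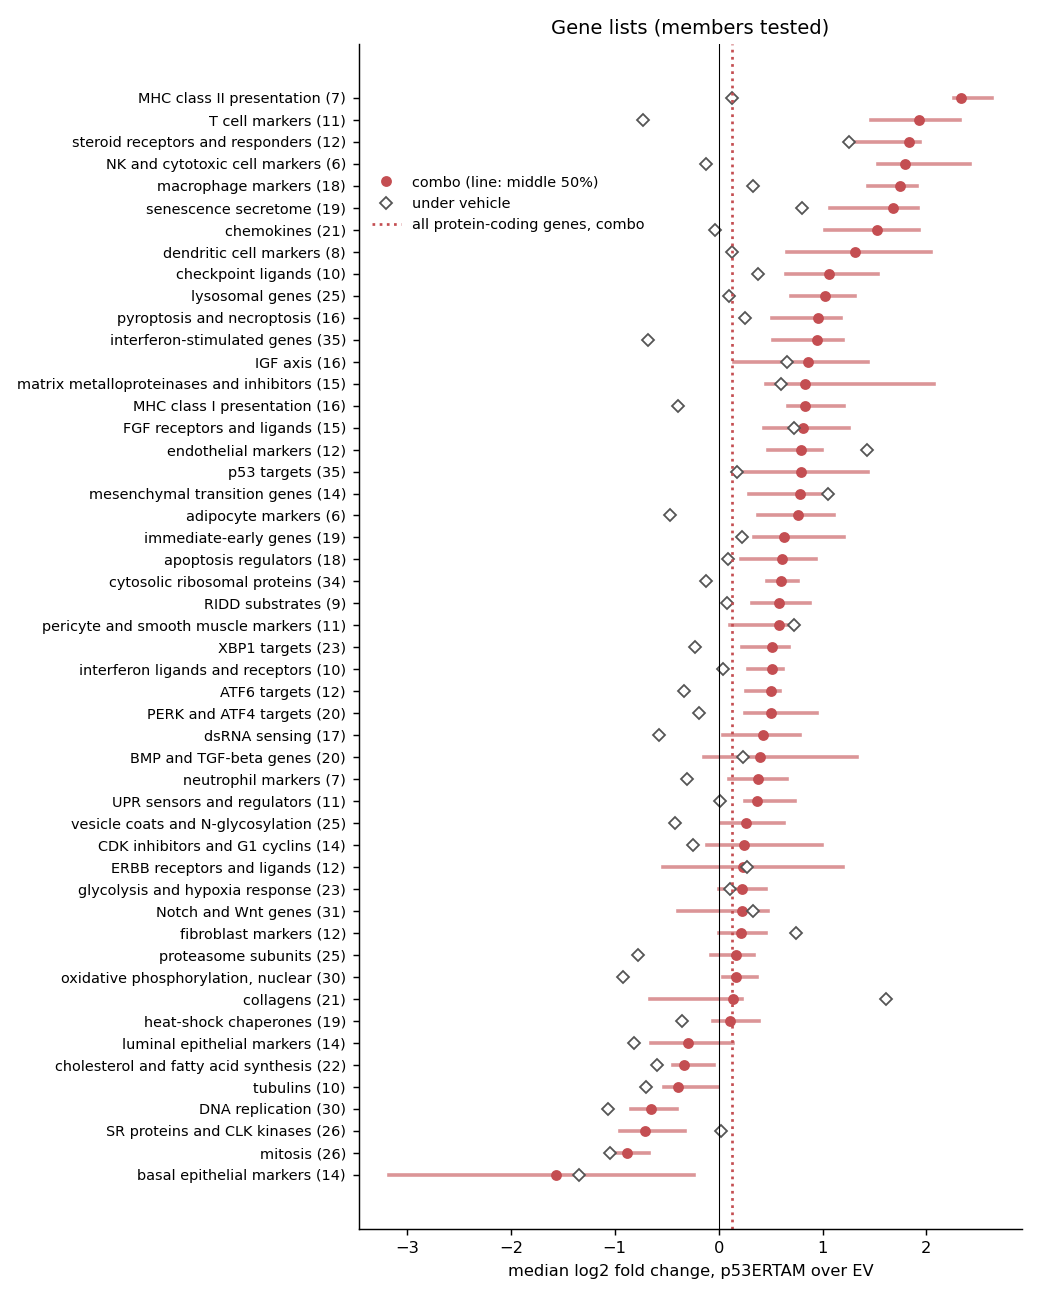
Median log2 fold change of p53ERTAM over EV tumors for each gene list with 6 or more measured members (number in brackets), under combo (filled, with a line over the middle 50% of members) and under vehicle (open). MHC class II genes have the highest combo median (2.33) and basal epithelial markers the lowest (-1.56); the dotted line is the median of all protein-coding genes (0.13).

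The unfolded protein response has 3 sensors, IRE1α, ATF6 and PERK, and ORIN1001 acts on the first, so both groups were under the inhibitor. Ern1, which encodes IRE1α, had 64.7, 71.7 and 62.0 CPM in EV combo and 76.9, 79.1 and 74.1 CPM in p53ERTAM combo. It was not called (0.21, SE 0.0992, edgeR adjusted p = 0.0938), but was with exon length offsets (0.0267) and by voom (0.0444). Xbp1 had 85.7, 99.6 and 76.7 CPM against 130, 134 and 133 CPM (0.60, SE 0.227, edgeR adjusted p = 0.0473). Splicing of Xbp1 cannot be read from gene counts, and the call was lost in most alternatives, with protein-coding scaling for one (0.0891) and without any 1 of the 6 combo libraries (0.0519 to 0.140). Of 23 XBP1 targets 13 were higher and 2 lower (median 0.51), of 12 ATF6 targets 7 were higher (median 0.50), and of 20 PERK and ATF4 targets 12 (median 0.50; 7 with GC and exon length offsets). The shares called were 65.2, 58.3 and 60%, beside 46.1% of all protein-coding genes. Atf4, the transcription factor downstream of PERK, had 124, 118 and 120 CPM against 215, 221 and 212 CPM (0.83, SE 0.0999, edgeR adjusted p = 4.19e-05). Its targets Trib3 (1.86), a pseudokinase, and Slc7a11 (1.72), the cystine transporter, were higher. The XBP1-linked chaperone genes Hyou1 (0.57), Pdia6 (0.70), Dnajc3 (0.71) and the degradation factor Edem1 (0.65) were higher, and Syvn1 (-0.38) and Ssr4 (-0.55) were lower. Syvn1 lost its call without EV combo replicate 1 or 2 or p53ERTAM combo replicate 1 or 3 (adjusted p 0.0605 to 0.168), and Ssr4 without EV combo replicate 2 or 3 or p53ERTAM combo replicate 1, 2 or 3 (0.0539 to 0.144). Of 9 mRNAs known as direct IRE1α substrates 6 were higher (median 0.58), among them Sparc (0.77) and Hgsnat (0.58), and 3 without EV combo replicate 3. Hgsnat lost its call without EV combo replicate 1 or 3 or p53ERTAM combo replicate 3 (adjusted p 0.0565 to 0.0688).

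ATF6 binds the ER stress response element. Its letters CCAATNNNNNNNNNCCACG were in the upstream bases of 5 of 10 ATF6 targets with a RefSeq window and in 16 of 10822 genes (0.148%). Only 2 of the 5, Canx and Calr, were called, and Hspa5, Creld2 (0.25) and Hsp90b1 (0.17) were not. The windows of 3 of the 5 are shown in capitals at the element, since genes with the same letters differed in their values: Canx (chr11:50325750-50325848, minus), Calr (chr8:84847025-84847123, minus) and Hspa5 (chr2:34771995-34772089, plus).
Canx: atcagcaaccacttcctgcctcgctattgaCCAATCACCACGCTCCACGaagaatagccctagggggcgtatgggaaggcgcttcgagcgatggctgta
Calr: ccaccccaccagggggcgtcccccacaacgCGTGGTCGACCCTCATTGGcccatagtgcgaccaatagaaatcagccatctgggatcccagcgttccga
Hspa5: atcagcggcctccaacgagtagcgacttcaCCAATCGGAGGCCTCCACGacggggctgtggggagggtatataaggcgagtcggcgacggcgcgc
The lectin chaperone Canx had 335, 335 and 311 CPM against 583, 584 and 568 CPM (0.82, SE 0.120, edgeR adjusted p = 0.000168), and Calr was higher by 0.59. Hspa5, the chaperone BiP, had 843, 758 and 777 CPM against 936, 861 and 879 CPM. The 3 and 3 libraries of Hspa5 did not overlap, and it was not called (0.17, SE 0.137, edgeR adjusted p = 0.328).

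Ribosomal protein and splicing genes moved in opposite directions. Of 34 cytosolic ribosomal protein genes 26 were higher (median 0.60; 26 with protein-coding scaling and 24 with GC and exon length offsets). Rps20 had 103, 131 and 108 CPM against 256, 236 and 248 CPM (1.11, SE 0.108, edgeR adjusted p = 9.37e-06), and Rpl19 was higher by 0.97. In the list of SR proteins, which help to select splice sites, and of the CLK kinases that phosphorylate them, 21 of 26 were lower (median -0.71). Clk2, a kinase of SR proteins, had 86.5, 83.9 and 80.9 CPM against 30.2, 29.5 and 31.4 CPM (-1.46, SE 0.0983, edgeR adjusted p = 9.75e-07). Srrm2 (-0.89), a spliceosome scaffold, Ddx17 (-0.92), an RNA helicase, and Luc7l3 (-1.26) were lower. Under vehicle the splicing list had 6 members higher and 4 lower (median 0.022), and 16 of the 26 were called lower in the interaction. Of 30 nuclear genes of oxidative phosphorylation 6 were higher and 2 lower (median 0.17), and of 25 proteasome subunits 5 were higher (median 0.17; 2 higher and 1 lower with protein-coding scaling). Both shares are below the share called over all genes. Without p53ERTAM vehicle replicate 2 the higher counts were 10 and 12, and for the proteasome 2 to 3 without EV combo replicate 1 or 3 or p53ERTAM combo replicate 1, 2 or 3. The share of Gm26917 and of mitochondrial transcripts differed between the same libraries, and its part in these lists was not tested.

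Basal epithelial genes were lower, several of them to a small fraction of the EV level. Of 14 basal markers 7 were lower and 1 higher (median -1.56). Krt14, a basal keratin, had 127, 109 and 89.6 CPM in EV combo and 6.44, 8.05 and 5.88 CPM in p53ERTAM combo (-4.0, SE 0.298, edgeR adjusted p = 2.63e-06). Col17a1, a hemidesmosome collagen, had 230, 189 and 119 CPM against 2.01, 4.37 and 3.37 CPM (-5.79, SE 0.421, edgeR adjusted p = 3.03e-06). Trp63, the transcription factor of basal epithelium, had 120, 95.1 and 79.9 CPM against 14.5, 15.7 and 11.2 CPM (-2.83, SE 0.241, edgeR adjusted p = 5.48e-06). The basal keratin Krt5 (-5.35) and the laminin chain Lama3 (-2.59) followed the same direction. Of 14 luminal markers 5 were lower and 2 higher (median -0.30), with the transcription factors Elf5 (-1.0), Ehf (-0.95) and Grhl2 (-0.76) and the keratin Krt7 (-0.71) lower. The shares called were 57.1% of the basal and 50% of the luminal markers, beside 46.1% of all protein-coding genes. Among 14 genes of mesenchymal transition 8 were higher, including Twist1 (2.73), Tgfb1 (0.96) and Tgfbi (1.31), and Snai2 (-2.35) and the cadherin Cdh2 (-3.29) were lower. Under vehicle 9 of these 14 were higher and 2 lower, with a median of 1.06 beside 0.78 under combo.

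Of the matrix and vessel lists, 66.7% of endothelial markers and 53.3% of matrix metalloproteinases and inhibitors were higher, beside 26.6% of all protein-coding genes, and most collagens and fibroblast markers were not called. Of 21 collagens 5 were lower and 2 higher (median 0.13, equal to that of all protein-coding genes), and 3 to 6 were lower without 1 library (3 without EV combo replicate 1 or p53ERTAM combo replicate 1, 2 or 3). Col7a1, the anchoring fibril collagen, had 432, 333 and 326 CPM against 29.0, 22.4 and 21.2 CPM (-3.91, SE 0.363, edgeR adjusted p = 1.38e-05). Col16a1 (-2.69) and Col4a5 (-1.5) were lower too. Of 12 fibroblast markers 2 were higher, Thy1 (1.25) and Pdgfrb (0.88), and Fbln1 (-1.79) was lower, with summed levels of 1193 to 2133 and 1495 to 2222 CPM. Of 12 endothelial markers 8 were higher (median 0.80; sums 174 to 266 and 270 to 380 CPM), with Cldn5 (1.97) and Vwf (1.56) among them. Only 5 were called with protein-coding scaling, 5 without EV combo replicate 1, and 4 without EV combo replicate 2 or p53ERTAM combo replicate 1 or 3. The endothelial difference was larger under vehicle, where 10 of the 12 were higher (median 1.43; Cldn5 2.96, Vwf 2.40). In the interaction 2 of the 12 were called downward. Of 15 matrix metalloproteinases and inhibitors 8 were higher, among them Timp2 (1.84) and Mmp13 (2.17), and 5 without EV combo replicate 3 or p53ERTAM combo replicate 3.

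Growth factor receptors and ligands changed member by member. Fgfr2, a fibroblast growth factor receptor of epithelium (chr7:130162451-133123350), had 61.4, 52.5 and 48.1 CPM in EV combo and 1.29, 1.69 and 1.21 CPM in p53ERTAM combo. This was the smallest p of any protein-coding gene (-5.27, SE 0.216, edgeR adjusted p = 2.76e-08). The other called members of the FGF list were higher, 9 of 15, including the feedback inhibitors Spry4 (1.42), Spry1 (1.18) and Spry2 (0.74). Bmp7, a bone morphogenetic protein, had 41.3, 32.1 and 29.7 CPM against 2.21, 2.34 and 1.45 CPM (-4.10, SE 0.202, edgeR adjusted p = 1.49e-07). In the ERBB list 6 of 12 were higher and 4 lower, and 2 were lower without p53ERTAM combo replicate 3. The receptor Egfr had 53.3, 65.4 and 64.3 CPM against 12.3, 8.69 and 12.5 CPM (-2.45, SE 0.282, edgeR adjusted p = 4.13e-05), while its ligands Hbegf (2.24) and Ereg (2.46) and its inhibitor Errfi1 (0.93) were higher. Erbb2 (-0.30) and the ligands Nrg1 (-3.24) and Egf (-0.81) were lower. Erbb2 lost its call without EV combo replicate 2 or p53ERTAM combo replicate 3 (adjusted p 0.0678 and 0.0893), and Egf without any 1 of the combo libraries other than EV replicate 2 (0.0538 to 0.0964). Of 31 Notch and Wnt genes 6 were higher and 7 lower (41.9% called, median 0.22), a smaller share than the 46.1% called over all protein-coding genes. The 6 became 4 without EV combo replicate 1 or 2, and 3 without p53ERTAM combo replicate 1 or 3. The receptor Notch1 had 845, 874 and 822 CPM against 295, 285 and 275 CPM (-1.57, SE 0.135, edgeR adjusted p = 4.44e-06), and the ligands Wnt4 (-2.35) and Wnt6 (-3.03) were lower, while the ligand Wnt7b (1.48) and the Notch target Nrarp (0.73) were higher. Igf2, a growth factor, had 14733, 13429 and 11626 CPM against 3761, 4387 and 3836 CPM (-1.73, SE 0.199, edgeR adjusted p = 3.13e-05). The receptors Tgfbr1 (1.30) and Tgfbr2 (0.96) were higher.

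Secreted factors linked to senescence were mostly higher: 17 of 19, with a median of 1.68. They included Csf3 (2.61), a neutrophil growth factor, Igfbp7 (1.68) and Gdf15 (2.48), while Igfbp5 (-2.56) was lower. The 17 became 10 without EV combo replicate 3 and 11 without p53ERTAM combo replicate 3.

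By size, the rises with the largest fitted folds, among genes at 5 CPM or more in the higher group, were led by Myocd, the coactivator of smooth muscle genes. It had 2 counts over the 3 EV combo libraries and 535 over the 3 p53ERTAM combo libraries, a ratio of 172 (exact 95% counting interval 47.3 to 1422). Myocd was also higher under vehicle (5.29, edgeR adjusted p = 4.38e-05), and its interaction was not called (edgeR adjusted p = 0.176). Of 11 pericyte and smooth muscle markers, Myocd included, 2 were higher and 1 lower (27.3% called, beside 46.1% of all protein-coding genes). Acta2 (-0.22), Tagln (0.63) and Myh11 (0.58) were not called. Tacr3, the neurokinin B receptor, had 0, 0.144 and 0.569 CPM against 15.9, 13.3 and 13.2 CPM (5.78, SE 0.782, edgeR adjusted p = 0.000125). Bst1 (4.07), an ectoenzyme of leukocytes and stroma, Nppc (4.37), a natriuretic peptide, and Cxcl13 (5.47), the B cell attractant, were among the same 12. The EV libraries of Cytl1, a secreted cytokine-like protein, spread from 0.797 to 71.8 CPM, below 481, 610 and 601 CPM in p53ERTAM combo (4.29, SE 0.991, edgeR adjusted p = 0.00597).

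The largest falls included Foxi1, a transcription factor of ion-transporting epithelial cells, with 73.6, 43.9 and 84.5 CPM against 1.05, 0.952 and 0.470 CPM (-6.35, SE 0.553, edgeR adjusted p = 8.97e-06). Atp6v1b1, a proton pump subunit of such cells, had 114, 69.1 and 152 CPM against 4.23, 3.59 and 1.49 CPM (-5.17, SE 0.415, edgeR adjusted p = 5.33e-06). In both, the lowest EV library lay far above the highest p53ERTAM library. Groups that did not overlap were a condition for naming the largest changes. Sez6l (-6.55), a neuronal membrane protein, Snph (-5.00), a mitochondrial anchor, Homer2 (-4.83), a postsynaptic scaffold, and Nlrp9b (-5.23) were lower. Slc5a1, the sodium-glucose transporter, was lower by far less evenly, with 8.05, 0.794 and 14.8 CPM in EV combo against 0.0805, 0.173 and 0.0784 CPM, and lost its call without the filter on low counts (adjusted p = 0.0525). Among the smallest p-values were also those of Plxna3 (-2.62), a semaphorin receptor, Plch2 (-4.50), a phospholipase C, Mical3 (-1.78), an actin-regulating monooxygenase, and, in the higher direction, Rhob (2.08), a small GTPase, and Stra6 (3.31), the retinol transporter.

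Set beside the same vectors under vehicle, the combo values were in part shared and in part not. Under vehicle 2187 protein-coding genes were higher (15.7%) and 3406 lower (24.5%) in p53ERTAM tumors, 40.2% in either direction. Of the 3705 higher under combo, 1107 (29.9%) were also higher under vehicle, 351 were lower there and 2247 were not called. Those 1107 were 50.6% of the genes higher under vehicle. Of the 2714 lower under combo, 1190 (43.8%) were also lower under vehicle, which was 34.9% of the vehicle calls. Across genes the log2 fold changes of both comparisons, which share no sample, had Pearson's r 0.426 and Spearman's rho 0.365, given as a description since genes are not independent. The difference itself was tested by the interaction, with 4836 genes called (34.8%), 3207 upward and 1629 downward. With protein-coding scaling these were 1962 upward and 2124 downward, so which direction led depended on the scaling.

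**Figure D4:**
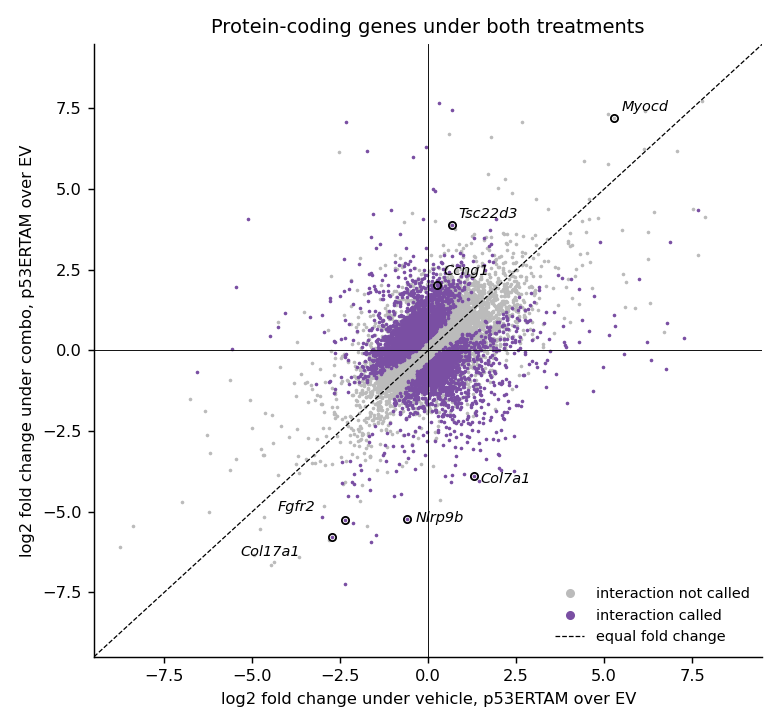
Log2 fold change of p53ERTAM over EV tumors for each protein-coding gene, under vehicle (x) and under combo (y); coloured genes are called in the interaction and the dashed line marks equal fold changes. Col7a1 lies at 1.29 under vehicle and -3.91 under combo, Tsc22d3 at 0.67 and 3.90.

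Gene groups fell on both sides of this test. Mitosis genes were lower under both treatments: 26 of 26 under vehicle (median -1.04) and 24 of 26 under combo, with 1 called upward and 2 downward in the interaction. Interferon-stimulated genes had a median of -0.68 under vehicle with 11 of 35 lower, and 29 of 35 were called upward in the interaction. Class I genes (median -0.40 under vehicle, 14 of 16 upward in the interaction) and class II genes (0.13, 7 of 7) went the same way. All 30 oxidative phosphorylation genes were lower under vehicle (median -0.92) and 28 were called upward in the interaction. Collagens ran the other way, with 17 of 21 higher under vehicle (median 1.61) and 16 called downward in the interaction. Ccng1 and Fgfr2 show the test for single genes: Ccng1 had 0.24 under vehicle (interaction 1.80, edgeR adjusted p = 0.000146), and Fgfr2, lower under vehicle by a log2 fold change of -2.37, was lower still under combo (interaction -2.90, edgeR adjusted p = 0.000146). Cdkn1a was higher by 1.90 under vehicle and its interaction was not called (0.52, edgeR adjusted p = 0.39). The interaction includes the EV combo libraries, whose make-up stood apart. In the vehicle groups p53ERTAM replicate 2 stood apart, with 86.7% of its counts in protein-coding genes against 92.3 and 94.0% in the other p53ERTAM vehicle libraries. Without it 1630 genes were higher and 2620 lower under vehicle, and 2605 were upward and 1338 downward in the interaction. The EV vehicle libraries were uneven in immune genes. Interferon-stimulated genes summed to 890 to 1736 CPM in EV vehicle and 860 to 976 CPM in p53ERTAM vehicle. Class I genes summed to 2325 to 4220 and 2010 to 2512 CPM, and class II genes to 183 to 1082 and 358 to 735 CPM. The part of this spread in the vehicle and interaction values was not tested.

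The direction of a gene's difference went with the length of its exons. Protein-coding genes were put in 4 bins of near-equal size by summed exon length. In the bin with the shortest exons the median combo log2 fold change was 0.36, and it was 0.21, 0.060 and -0.078 in the next bins. Under vehicle the same bins had -0.22, -0.13, -0.030 and 0.050, the opposite order. Across 13911 genes Spearman's rho between exon length and the combo log2 fold change was -0.220, as a description. With offsets for exon length in the fit, 3630 genes were higher and 2604 lower, close to the 3705 and 2714 without them. With these offsets 25 of 26 mitosis genes were lower and 25 of 34 ribosomal protein genes higher.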

How the data were processed

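RNA was measured in 12 bulk tumors, 3 in each of 4 groups taken from the sample titles. The authors deposited raw counts per gene, in the featureCounts layout per the file headers, with no normalization. Stranded libraries were made from ribosome-depleted total RNA, per the labels' protocols. The submitters' processing notes name the aligner STAR, the counter featureCounts, the read trimmers and checkers fastp and FastQC, and the assembly GRCm38.p5. The annotation release, the strand setting and whether both mates of a pair were counted are not given in the sources used here. Counts of paralogs, of overlapping genes and of antisense partners can include reads of one another.

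Of 52636 identifiers per file, 52489 were matched to GENCODE M21 for symbols and gene types. At least 1 count was seen for 31622 genes. The filterByExpr step of edgeR kept 17970, and 13911 of these are protein-coding. In R 4.3.3, edgeR 4.0.16 fitted 4 group means over all 12 libraries by the robust quasi-likelihood F-test, with 8 residual degrees of freedom, TMM factors of 0.941 to 1.05 and a common biological coefficient of variation of 0.221. The Benjamini-Hochberg adjustment ran over all genes tested, and a call is an adjusted p below 0.05. CPM are scaled by TMM. SE is the absolute log2 fold change divided by the square root of the quasi-likelihood F statistic, not an error reported by the model. A gene without counts in a group is limited to 3 counts over the group, 0.0616 CPM in EV combo and 0.0427 CPM in p53ERTAM combo, and this limit and the intervals cover counting error only.

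Named genes are Trp53, Esr1, Cdkn1a, Mdm2, Ccng1, Xbp1, Ern1, Hspa5, Zbp1 and Gsdmd, those among the 12 largest changes and 6 smallest p-values per direction (the former among genes whose groups did not overlap and whose higher group reached 5 CPM), up to 4 members of smallest p per list, and members that move against their list. Not all genes that the rule allows are described, and some are not reported here. The 55 gene lists and the comparison were chosen with earlier results of these data known. Some genes stand in more than 1 list. No list was tested; lists are described by counts and medians.

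On simulated data for the combo comparison (17970 genes, 50 changed per fold) the shares recovered were 8% at 1.5-fold, 64% at 2-fold, 84% at 4-fold and 94% at 8-fold, with 4.58% false among its calls. Alternatives were DESeq2 1.42.0 as a test and for size factors, limma 3.58.1 voom with quality weights, scaling over protein-coding genes, no filter, at least 1 CPM in 3 libraries, a fold of 1.5, a replicate block, exon length offsets, GC with exon length offsets, only the 6 samples compared, and leaving out each of the 12 libraries. Promoter windows are from RefSeq, build GRCm38.p6, and none from chromosome 18 is shown.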

Additional observations from a re-analysis of the deposited data

Results flagged for a closer look

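For 91 of the 173 genes named, the difference between p53ERTAM and EV tumors itself differed between combo and vehicle by edgeR's interaction test (adjusted p below 0.05). Over all protein-coding genes the share was 34.8%, and many of the genes were named for a small p or a large change under combo, which is 1 arm of this test, so their count is a description. The values are the combo log2 fold change minus the vehicle one, and all rest on the EV combo libraries whose make-up stood apart.

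Genes called upward in the interaction and not called under vehicle included those of immune function: Zbp1 (1.57), Gbp2 (2.48), Isg15 (1.80), Irf1 (0.77), Ticam1 (0.83), Socs1 (1.60), C1qa (1.95), C1qb (1.58), C1qc (1.78), Itgax (1.69), Xcr1 (3.25), Cd3e (3.30), Ccl5 (2.62), Ccl9 (1.67), Csf3 (1.80), Cd86 (1.39), Cd47 (1.15), Psmb10 (1.68), Tapbp (1.22), H2-D1 (1.48), H2-DMb1 (3.36), H2-Aa (2.52), H2-Eb1 (2.55) and Cd74 (2.32). Others of the same kind were the p53 targets Ccng1 (1.80) and Ephx1 (1.54), and Bid (0.68), Ninj1 (0.95), Cdkn2a (0.85), Tgfb1 (0.87), Tgfbr2 (0.76), Tgfbi (1.31), Klf6 (1.28), Tsc22d3 (3.23), Scd1 (1.15), Hgsnat (1.0), Hexa (1.22), Psap (1.20), Canx (0.86), Pdia6 (0.75), Dnajc3 (0.83), Rps20 (0.90) and Rpl19 (0.72).

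Genes higher under both treatments and more so under combo were Slc7a11 (1.10), Mcl1 (0.56), Tgfbr1 (0.76), Casp9 (0.45), Bst1 (2.16), Apoe (1.35), Stra6 (1.53), Sgk1 (0.60), Cxcl16 (1.22), Npc2 (1.09), Atf4 (0.50), Ifngr2 (0.70) and Fkbp5 (0.89). Bst2 (1.87), Calr (0.94), Xbp1 (1.38) and Ifit1 (2.54) were called lower under vehicle and higher under combo. Ssr4 (1.05) was lower under both, by less under combo.

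Genes called downward and not called under vehicle were Ddb2 (-1.41), Clk2 (-1.34), Mical3 (-1.63), Nlrp9b (-4.61), Mcoln1 (-0.79), Tyk2 (-0.51), Grhl2 (-0.48), Ddx17 (-0.87), Srrm2 (-1.01) and Col4a5 (-1.21). Lower under both and more so under combo were Igfbp5 (-1.39), Cenpf (-0.56), Notch1 (-0.63), Bmp7 (-1.65), Psrc1 (-0.78), Pidd1 (-1.11), Plch2 (-3.52), Plxna3 (-1.92), Atp6v1b1 (-2.14), Fgfr2 (-2.90), Krt14 (-2.33), Krt5 (-3.22), Trp63 (-1.16), Lama3 (-1.0) and Col17a1 (-3.04). Pdgfrb (-1.14) was higher under both, by less under combo. Egf (-1.55), Col16a1 (-3.50), Col7a1 (-5.20) and Luc7l3 (-1.66) were called higher under vehicle and lower under combo.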

How the results depend on the processing

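Counts of called protein-coding genes moved by more than 1.5 times when tested against a fold of 1.5: 1221 higher and 894 lower under combo, 723 and 813 under vehicle, 749 upward and 634 downward in the interaction. With protein-coding scaling the upward interaction calls were 1962, against 3207. Refits that left out 1 library gave 2849 to 4067 higher and 2103 to 2881 lower under combo, 1630 to 2187 and 2620 to 3315 under vehicle, and 2228 to 3381 and 1311 to 1668 for the interaction. The other settings stayed within 1.5 times of these counts. GC with exon length offsets was added after the data were seen; with it Rb1cc1 (0.14, edgeR adjusted p = 0.356) and Atp6v1h (0.20, edgeR adjusted p = 0.248) changed sign, and the cause was not tested. Of 173 named genes, 154 kept their call or lack of one and their sign in every setting other than the fold of 1.5.

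With the replicate number as a block, 3581 genes were higher and 2606 lower under combo. Same-numbered libraries of both vectors did not deviate together (r of their deviations across genes -0.0223, 0.0385 and -0.0322 under combo), so the numbers do not show a pairing, and not every library correlated best with its own number.

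In the simulation, at 3 samples a group and with 50 of 17970 genes changed per fold, the test recovered 8% of 1.5-fold changes. In the data 46.1% of protein-coding genes were called, far more than were changed in the simulation, so this recovery cannot be carried over. The EV combo libraries are shallower than the p53ERTAM combo libraries and hold fewer protein-coding counts.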

Other observations

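Other gene groups are set beside the 46.1% of all protein-coding genes called under combo. Of the immediate-early genes 57.9% were called. Of the cholesterol and fatty acid synthesis genes 36.4% were called, a smaller share than over all genes. Of 19 immediate-early genes 10 were higher and 1 lower (median 0.63). Klf6, a stress-induced transcription factor, had 106, 95.3 and 104 CPM in EV combo and 288, 285 and 291 CPM in p53ERTAM combo (log2 fold change 1.5, SE 0.112, edgeR adjusted p = 1.54e-06). Maff (1.20), the phosphatase gene Dusp1 (1.80) and Fosb (2.90) were higher, and Egr3 (-1.13) was lower. Egr3 lost its call without any 1 of the combo libraries other than EV replicate 3 (adjusted p 0.0708 to 0.111). Of 22 cholesterol and fatty acid synthesis genes 6 were lower and 2 higher (median -0.33; 10 lower with protein-coding scaling, and 3 without EV combo replicate 1 or 3 or p53ERTAM combo replicate 2 or 3). The 2 higher were Srebf1 (0.85), a regulator of lipid synthesis, and Scd1 (1.0), the desaturase.

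In the IGF list 9 of 16 genes were higher and 2 lower. Igf2bp1, an RNA-binding protein of fetal tissues, had 4.25, 2.02 and 0.911 CPM against 11.8, 15.8 and 18.4 CPM (2.68, SE 0.422, edgeR adjusted p = 0.000287). Under vehicle its log2 fold change was also 2.68. Milk protein genes summed to 279.6 to 431 CPM in EV combo and 928 to 1114 CPM in p53ERTAM combo, while their median log2 fold change over 5 measured genes was -1.52, with 1 higher and 1 lower. Summed level and median thus differ in sign. Erythroid markers summed to 0.722 to 4.78 and 0.314 to 0.433 CPM.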
